A study of Homo sapiens with 6 samples.

Results

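The cholesterol and fatty acid synthesis genes were followed in RNA sequencing of HCT116, an established human colorectal carcinoma cell line, after CRISPR guides had been aimed at ZFP90, a KRAB zinc-finger protein. The set held 34 genes chosen by symbol, from ACAT2 at the head of the mevalonate pathway to the lipogenic enzyme ACSS2. All 34 were among the 56638 gene symbols counted, and all 34 passed the filter on low counts that left 16369 genes. There were 3 libraries labelled ZFP90 knockout and 3 control libraries with no further treatment named. Guide RNAs were designed against exon 3 of ZFP90, a target recorded for all 6 libraries, so that record does not tell the groups apart. All 6 libraries came from HCT116 cells at passage 16 to 19, grown in RPMI-1640 with fetal bovine serum. Whether equal labels stand for separately grown cells or for 1 clone is not stated. The p-values therefore reflect library-to-library spread alone, and that spread may be technical.

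Cells make cholesterol from acetyl-CoA through mevalonate, farnesyl diphosphate and squalene, and then through a series of sterols. The transcription factors SREBP-2 and SREBP-1, encoded by SREBF2 and SREBF1, switch on most of these genes together. When sterols are scarce, SCAP escorts the SREBP proteins from the endoplasmic reticulum to the Golgi for cleavage; when sterols are plentiful, the INSIG proteins hold SCAP back. SQLE encodes squalene epoxidase, which uses oxygen to turn squalene into the substrate of the ring-closing enzyme, and it is regarded as a rate-limiting step of the pathway.

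Gene reads per library numbered between 14450905 and 17012910 in the libraries labelled knockout and between 13424356 and 16215490 in the controls. Intervals and floors set by such depths cover counting error only; a floor of 3 reads was 0.176 to 0.223 CPM (reads scaled to a fixed library size) before TMM scaling, which corrects for library composition. ZFP90 RNA measured 86.7, 80.3 and 89.6 CPM in the libraries labelled knockout, against 47.4, 47.3 and 43.0 CPM in the controls, so it was higher where a knockout was labelled. A small insertion or deletion in an exon need not lower the RNA, and gene counts do not show the reading frame; directions are therefore given for the libraries as labelled. Of 14 colorectal epithelial markers, 9 were over 1 CPM in every library, EPCAM and KRT8 among them, while CDX1 and TFF3 were at 0 in all. Their summed level was 3156 to 3261 CPM in the libraries labelled knockout and 3161 to 3274 CPM in the controls. Within that list KRT20 measured 7.54, 5.45 and 9.01 CPM in the libraries labelled knockout, against 1.29, 1.05 and 1.64 CPM in the controls. KRT18 measured 190.7, 169.6 and 173.4 CPM in the libraries labelled knockout, against 195.4, 225.2 and 207.3 CPM in the controls, and neither gene's groups overlapped. The summed level of the 8 leukocyte markers was 2.83 to 3.40 CPM in the libraries labelled knockout and 5.11 to 5.74 CPM in the controls, with CD3E at 0 throughout, PTPRC at 0.0745 CPM or less, and CD4 as the 1 member that passed the filter. For 6 hepatocyte markers it was 1.56 to 1.76 CPM in the libraries labelled knockout and 0.431 to 0.854 CPM in the controls. ALB, the 1 member that passed the filter, was at 1.39 CPM or more in the libraries labelled knockout. In the controls ALB was at 0.591 CPM or less, and APOB was at 0 in every library. The summed level of the 9 fibroblast and endothelial markers was 75.8 to 97.4 CPM in the libraries labelled knockout. In the controls it was 75.3 to 96.1 CPM. COL1A1 made up most of it, at 72.9, 66.7 and 82.8 CPM in the libraries labelled knockout, against 70.4, 66.5 and 84.5 CPM in the controls. Of the 9, 5 passed the filter and 3 were over 1 CPM in every library (COL1A1, COL1A2 and COL3A1), while PECAM1 was at 0 in all. The part of these marker levels in the results was not tested. Control replicate 2 differed from the 2 others by chromosome. Relative to them its median level was 87.8% for genes of chromosome 6 and 81.1% for chromosome 7. It was 75.6% for chromosome 8, 70.9% for chromosome 9 and 54.7% for X, and slightly above 100% for the remaining autosomes. For 16 mitochondrial genes it was 53.3%, and for 11 genes of Y it was 58.7%. On these chromosomes lie 7 of the 34 genes (ACAT2, CYP51A1, INSIG1, FDFT1, SQLE, NSDHL and EBP), and control replicate 2 was the lowest control for each of them, so their values are also given without it.

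SQLE fell steeply in the libraries labelled knockout, and no other gene of the set fell by as much as 2-fold. SQLE measured 7.54, 6.16 and 8.10 CPM in the libraries labelled knockout, against 56.5, 37.0 and 59.8 CPM in the controls. The groups did not overlap, and the lowest control, replicate 2, still lay well above the highest library labelled knockout. The means were 7.27 ± 0.999 and 51.1 ± 12.3 CPM (SD, n = 3 each), so that SQLE RNA stood at 14.2% of the control mean. SQLE thus changed by -2.81 in log2 (SE 0.19; quasi-likelihood test of edgeR, p adjusted by Benjamini-Hochberg = 3.9e-05), a change that ranked 19 from the lowest of the 16369 genes tested. It rested on 125, 87 and 124 reads in the libraries labelled knockout, against 917, 564 and 803 in the controls. In bulk RNA, fewer cells with a transcript and less of it per cell cannot be told apart. Without control replicate 2 the log2 fold change was -2.99. Per kilobase of exon, SQLE ranked 15 of the 34 genes in the controls, at 11.9 RPKM (CPM divided by exon length in kilobases), and 30 of 34 in the libraries labelled knockout, at 1.69 RPKM.

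The enzymes on either side of SQLE did not share this fall. FDFT1, squalene synthase, makes the substrate of SQLE and measured 78.3, 70.4 and 85.05 CPM in the libraries labelled knockout, against 73.2, 49.3 and 72.0 CPM in the controls. LSS, lanosterol synthase, closes the rings of the product of SQLE and measured 31.8, 25.9 and 33.6 CPM in the libraries labelled knockout, against 34.7, 35.01 and 38.5 CPM in the controls. The groups overlapped for FDFT1, while for LSS every library labelled knockout lay a little below every control. The log2 fold change was 0.27 for FDFT1 (SE 0.14; edgeR adjusted p = 0.215) and -0.24 for LSS (SE 0.10; adjusted p = 0.121); the fall of LSS passed the threshold without control replicate 2 (-0.26, adjusted p = 0.0465). FDFT1 also lies on chromosome 8, and its log2 fold change without control replicate 2 was 0.10.

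Set against its neighbours library by library, SQLE moved apart from both. The difference SQLE minus FDFT1 in log2(CPM + 1) was -3.22, -3.32 and -3.24 in the libraries labelled knockout, against -0.37, -0.40 and -0.26 in the controls. The difference SQLE minus LSS was -1.94, -1.91 and -1.93 in the libraries labelled knockout, against 0.69, 0.08 and 0.62 in the controls. Neither pair of groups overlapped. The group means of SQLE minus FDFT1 differed by -2.91 and those of SQLE minus LSS by -2.39 (exact permutation test over libraries, two-sided, p = 0.1 for each and 0.1 after adjustment over the 2 relations). With 3 libraries against 3 this is the smallest p the design allows. SQLE and FDFT1 are both on chromosome 8, and control replicate 2, low for each, was also the lowest control in their difference. LSS is on chromosome 21, and in SQLE minus LSS control replicate 2 stood further from the other controls, at 0.08 against 0.69 and 0.62.

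**Figure D1:**
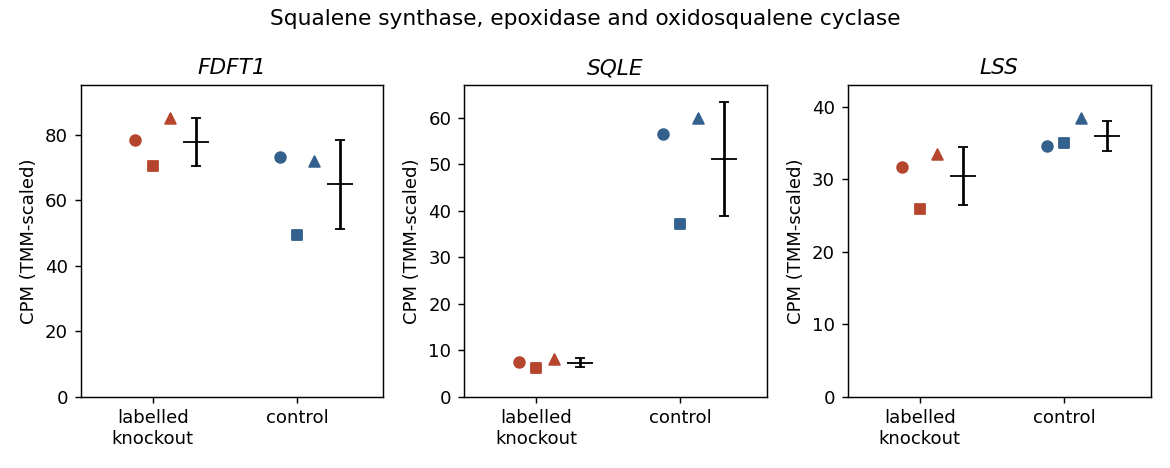
CPM (TMM-scaled) of FDFT1, SQLE and LSS in the 3 libraries labelled ZFP90 knockout (left) and the 3 controls (right); circles, squares and triangles are replicates 1, 2 and 3, and the black marks are means with SD. SQLE lies between 6.16 and 8.10 CPM in the libraries labelled knockout and between 37.0 and 59.8 CPM in the controls, while the groups of FDFT1 overlap and those of LSS lie close together.

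Of the 34 genes, 3 were called higher (CYP51A1, SCAP and ACACA) and 5 lower (SQLE, HSD17B7, INSIG2, ELOVL6 and ACSS2) at an adjusted p under 0.05. That is 23.5% of the set, where 21.1% of all genes tested were called (9.73% higher and 11.4% lower). The median log2 fold change was -0.04 over the set, against 0.01 over all genes tested. For 16 of the 34 genes (47.1%) the groups did not overlap, where the share over all genes was 41.2%: 7 had every library labelled knockout above every control (20.9% of all genes) and 9 had every one below (20.3%). SQLE was 1 of 5 genes called lower and, of the 34, the only one past 2-fold in either direction. The next lowest log2 fold changes belonged to ELOVL6 (-0.62), HSD17B7 (-0.39) and ACSS2 (-0.35). SQLE, ELOVL6 and ACSS2 were called lower whichever of the 6 libraries was left out, while the number called moved with the library left out. With libraries labelled knockout left out, the counts higher and lower were 0 and 3 without replicate 1 (8.82% of the set, where 10.7% of all genes were called), 5 and 5 without replicate 2 (29.4%, where 14.9% were called), and 1 and 3 without replicate 3 (11.8%, where 11.6% were called). With controls left out they were 1 and 4 without replicate 1 (14.7%, where 13.1% of all genes were called), 5 and 8 without replicate 2 (38.2%, where 27.7% were called), and 5 and 3 without replicate 3 (23.5%, where 15.4% were called). Correcting control replicate 2 along each chromosome gave 8 of the 34 called higher and 8 called lower (47.1%, where 30.6% of all genes were called). That correction reached all 34 genes of the set, but only the 83.8% of all tested genes whose place on a chromosome was known. Library sizes with no TMM scaling gave 2 higher and 9 lower (32.4%, where 20.3% were called), and no filter on low counts gave 8 higher and 6 lower (41.2%, where 13.6% were called). For the calls listed first, the share of the set thus lay near that of all genes, and in several of these alternatives it lay above.

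**Figure D2:**
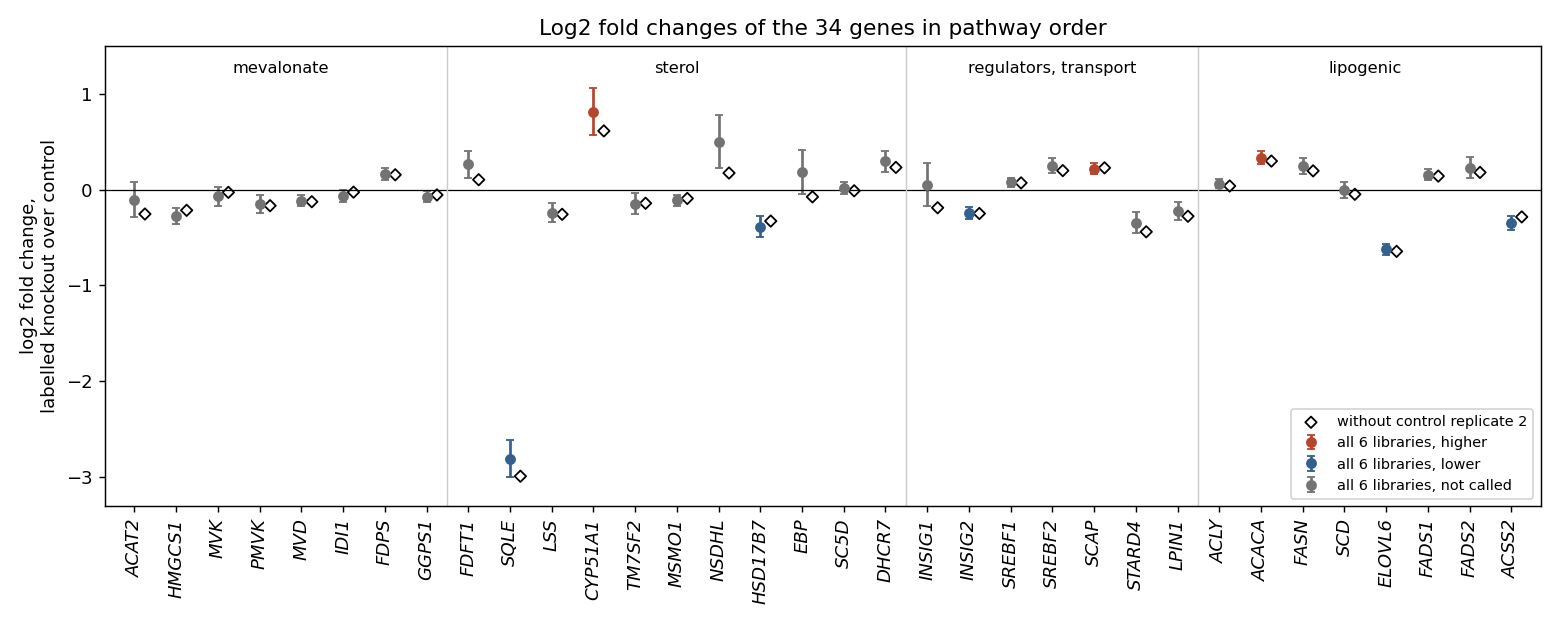
Log2 fold change (libraries labelled ZFP90 knockout over controls) of the 34 genes in pathway order; bars are standard errors from edgeR, colour marks genes called at adjusted p under 0.05, and diamonds are the values without control replicate 2. SQLE stands at -2.81, and the others lie between -0.62 and 0.82.

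The 8 enzymes from acetyl-CoA to the isoprenoid diphosphates did not pass the test, where 21.1% of all genes were called. None of ACAT2, HMGCS1, MVK, PMVK, MVD, IDI1, FDPS and GGPS1 was called by DESeq2 or by edgeR as first fitted. An unadjusted p was under 0.05 for 2 of the 8 in that edgeR fit, and limma-voom called 1, HMGCS1. Their log2 fold changes ran from -0.27 to 0.16 with a median of -0.09, and 7 of 8 were below 0. HMGCS1, the synthase that makes HMG-CoA, measured 37.9, 46.3 and 42.8 CPM in the libraries labelled knockout, against 49.2, 55.04 and 48.96 CPM in the controls. Every library labelled knockout lay below every control, by less than the range within either group. Its log2 fold change was -0.27 (SE 0.086, edgeR adjusted p = 0.0527). It passed the threshold without control replicate 2 (-0.22, adjusted p = 0.0417) and without replicate 2 labelled knockout (-0.34, adjusted p = 0.0427). HMGCS1 was called lower in 8 of the 15 alternatives, among them control replicate 2 corrected along the genome (-0.25, edgeR adjusted p = 0.0163).

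FDPS, which builds farnesyl diphosphate, had the 1 log2 fold change above 0 in this class. It measured 31.7, 32.5 and 32.4 CPM in the libraries labelled knockout, against 28.8, 28.5 and 29.1 CPM in the controls. The gap was narrow and without overlap (log2 fold change 0.16, edgeR adjusted p = 0.0954). With control replicate 2 corrected along the genome, FDPS was called higher (0.18, edgeR adjusted p = 0.0481). ACAT2, the thiolase that makes acetoacetyl-CoA, was counted thinly, with 64 to 87 reads in the libraries labelled knockout and 65 to 92 in the controls. The log2 fold change of ACAT2 was -0.11 (edgeR adjusted p = 0.725), and -0.25 without control replicate 2 (adjusted p = 0.281). In the GENCODE release 29 annotation on GRCh38, 52.3% of its exonic bases also lie in exons of other genes, among them TCP1 on the opposite strand. HTSeq can set such reads aside as ambiguous, and between 7.44% and 7.81% of all listed reads per library were, so a low count there need not mean a low level.

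Among the 11 enzymes from squalene to cholesterol, 1 was called higher and 2 lower (27.3%, where 21.1% of all genes were called). Without SQLE the median log2 fold change was 0.10 over 10 genes and -0.01 with control replicate 2 corrected along the genome. CYP51A1, the lanosterol demethylase, measured 5.25, 5.03 and 6.66 CPM in the libraries labelled knockout, against 2.96, 2.23 and 4.55 CPM in the controls. The groups did not overlap, and the lowest control was again replicate 2. CYP51A1 rose by a log2 fold change of 0.82 (SE 0.24; edgeR adjusted p = 0.0438) and by 0.61 without control replicate 2 (adjusted p = 0.0302). The call was lost without control replicate 1 (adjusted p = 0.121) and without replicates 1, 2 or 3 labelled knockout (adjusted p = 0.101, 0.0738 and 0.155). It rested on 71 to 102 reads in the libraries labelled knockout, against 34 to 61 in the controls. In the annotation 83.2% of its exonic bases overlap exons of other genes, and the copies CYP51A1P1 and CYP51A1P2 held 83 to 106 and 111 to 170 reads in the libraries labelled knockout, so its count is uncertain.

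HSD17B7, a reductase of sterol ring intermediates, measured 8.44, 9.13 and 9.28 CPM in the libraries labelled knockout, against 10.4, 12.6 and 12.1 CPM in the controls. The groups did not overlap, although control replicate 1 came close to the libraries labelled knockout. HSD17B7 fell by 0.39 on the log2 scale (SE 0.11; edgeR adjusted p = 0.0386). The call was lost with DESeq2 (adjusted p = 0.0695), without replicates 1, 2 or 3 labelled knockout (adjusted p = 0.134, 0.0819 and 0.0887) and without control replicates 2 or 3 (adjusted p = 0.0567 and 0.0964). Its near-identical copy HSD17B7P2 held 78 to 89 reads in the libraries labelled knockout and 71 to 100 in the controls, so reads could be split between them.

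Of the uncalled sterol enzymes, NSDHL on chromosome X, the decarboxylating sterol dehydrogenase, had the largest log2 fold change, 0.50 (SE 0.28; edgeR adjusted p = 0.239). It measured 17.4, 15.1 and 16.8 CPM in the libraries labelled knockout, against 14.9, 5.71 and 14.2 CPM in the controls. The control at 5.71 CPM was replicate 2, and the log2 fold change without it was 0.17. EBP, the sterol isomerase, is likewise on X: its log2 fold change of 0.19 became -0.08 when control replicate 2 was left out. DHCR7, which catalyses the last reduction to cholesterol, measured 69.1, 54.4 and 71.9 CPM in the libraries labelled knockout, against 53.0, 48.0 and 58.5 CPM in the controls. Those groups overlapped through replicate 2 labelled knockout, and the log2 fold change of 0.30 was not called (edgeR adjusted p = 0.0933). Without that library DHCR7 was called (adjusted p = 0.0239). TM7SF2, MSMO1 and SC5D had values of -0.15, -0.11 and 0.02, none of them called.

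**Figure D3:**
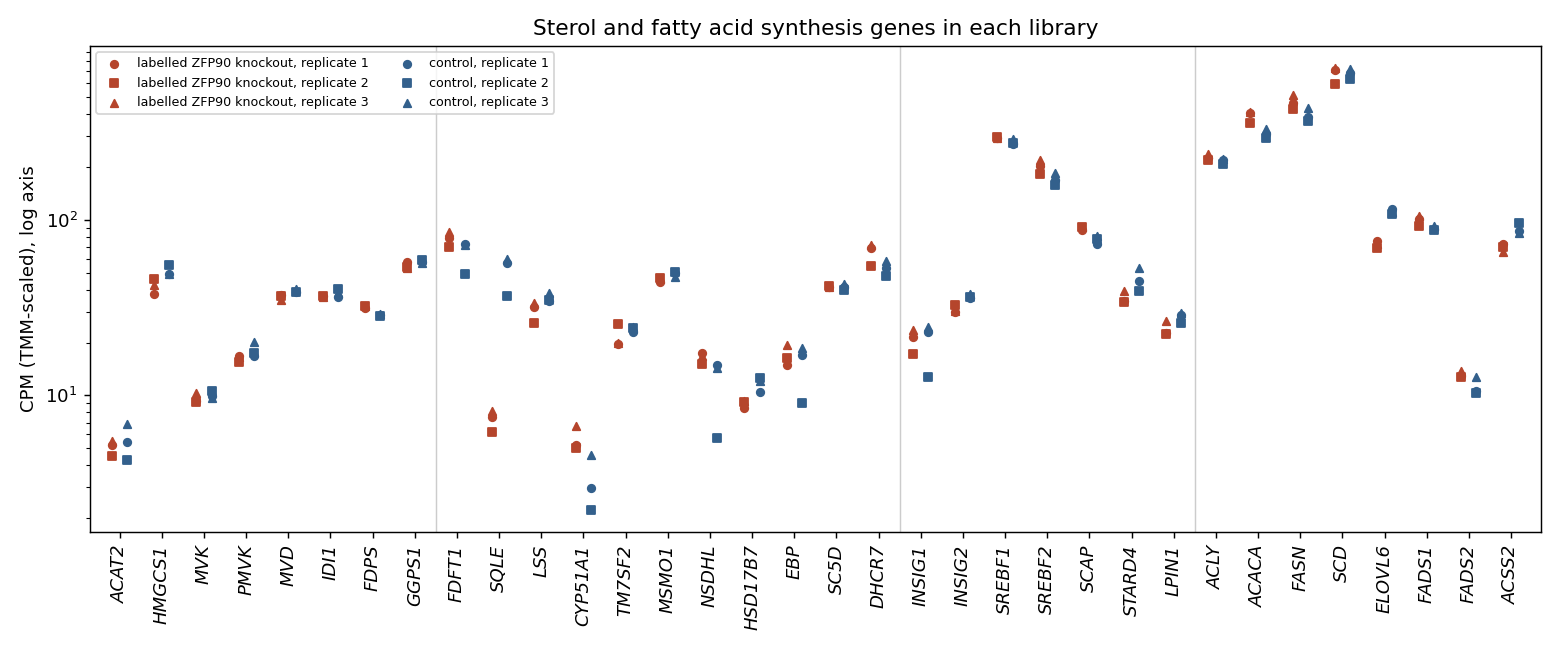
CPM (TMM-scaled, log axis) of the 34 genes in each library, with libraries labelled ZFP90 knockout to the left of the controls; grey lines part the mevalonate, sterol, regulator and lipogenic classes. SQLE has the widest gap between its groups on this axis, and control replicate 2 (blue squares) lies low for NSDHL, EBP, INSIG1, FDFT1 and SQLE. Levels are not divided by gene length.

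Of the 7 genes for regulators and transport, SCAP was called higher and INSIG2 lower (28.6%, where 21.1% of all genes were called). SCAP, the sterol-sensing escort of the SREBP proteins, measured 87.9, 91.5 and 90.7 CPM in the libraries labelled knockout, against 73.3, 77.8 and 80.8 CPM in the controls. INSIG2, a retention protein of SCAP, measured 30.03, 32.6 and 30.05 CPM in the libraries labelled knockout, against 35.7, 36.3 and 37.9 CPM in the controls. Neither gene's groups overlapped. SCAP rose by a log2 fold change of 0.22 (SE 0.055; edgeR adjusted p = 0.0224) and INSIG2 fell by 0.24 (SE 0.066; adjusted p = 0.0321). SCAP was not called without replicates 1, 2 or 3 labelled knockout (adjusted p = 0.0610, 0.0696 and 0.0822), without control replicate 1 (adjusted p = 0.0922), or with library sizes alone (0.15, adjusted p = 0.151). INSIG2 was not called without replicates 1 or 3 labelled knockout (adjusted p = 0.116 and 0.110), without control replicates 1 or 3 (adjusted p = 0.0663 and 0.0915), with DESeq2 (adjusted p = 0.0715), or with no filter on low counts (adjusted p = 0.0656).

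The 2 SREBP genes themselves did not fall with SQLE. SREBF1 measured 292.3, 296.7 and 291.9 CPM in the libraries labelled knockout, against 271.8, 275.6 and 287.9 CPM in the controls. Its groups lay close together without overlap (log2 fold change 0.08, SE 0.045; edgeR adjusted p = 0.26). SREBF2 measured 203.2, 183.6 and 220.5 CPM in the libraries labelled knockout, against 169.2, 157.6 and 184.1 CPM in the controls. The groups met at replicate 2 labelled knockout and control replicate 3, and the log2 fold change of 0.25 was not called (SE 0.079; adjusted p = 0.054). Without control replicate 2 SREBF2 was called at 0.20 (edgeR adjusted p = 0.0298), and leaving out control replicate 3 or replicate 2 labelled knockout also gave a call (adjusted p = 0.0427 and 0.0341). INSIG1, a classical SREBP target on chromosome 7, measured 21.5, 17.2 and 23.6 CPM in the libraries labelled knockout, against 23.04, 12.7 and 24.5 CPM in the controls. Its log2 fold change of 0.05 became -0.19 when control replicate 2 was left out, and neither was called. STARD4, a carrier of cholesterol in the cytosol, measured 34.3, 34.05 and 39.5 CPM in the libraries labelled knockout, against 45.0, 39.1 and 53.0 CPM in the controls. The lowest control, replicate 2, fell just below the highest library labelled knockout (log2 fold change -0.34, SE 0.11; edgeR adjusted p = 0.0593). Without control replicate 2, STARD4 was called lower (-0.44, adjusted p = 0.000516). LPIN1, a phosphatidate phosphatase, had a log2 fold change of -0.22 (adjusted p = 0.119) and was called lower without control replicate 2 (-0.28, adjusted p = 0.0241).

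RefSeq promoter windows on GRCh38.p14, from 250 bases before to 50 after a gene's start, were at hand for 30 of the 34 genes; ACAT2, FDFT1, SQLE and FASN were not among them. They were searched on both strands for the letters TCACNCCAC of the sterol regulatory element, for CCAAT, the box bound by NF-Y, and for CACGTG, an E-box. The sterol regulatory element letters were in 1 of 45 windows of the set (2.22%), against 1.13% of all 35116 windows. CCAAT was in 26 of the 45 windows (57.8%), against 34.6% of all, and CACGTG in 5 of the 45 (11.1%), against 7.26% of all. The searched motifs do not overlap one another in the windows below. A match is a description of letters, and no match says only that they are absent from this window. The windows of SREBF2, INSIG1 and HMGCS1 are shown because these SREBP-pathway genes did not change as SQLE did, at 118.8%, 103.3% and 82.9% of their control means; capitals mark the matches, and each runs 5′ to 3′ on the gene's strand. They lie at chr22:41832855-41833154 (plus strand), chr7:155297628-155297927 (plus strand) and chr5:43313363-43313662 (minus strand).
SREBF2: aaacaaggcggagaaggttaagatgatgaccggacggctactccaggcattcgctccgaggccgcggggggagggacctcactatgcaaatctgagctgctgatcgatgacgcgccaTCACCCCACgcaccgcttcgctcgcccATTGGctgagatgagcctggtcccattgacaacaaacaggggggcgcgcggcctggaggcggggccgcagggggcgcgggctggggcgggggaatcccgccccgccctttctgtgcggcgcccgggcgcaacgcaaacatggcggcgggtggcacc
INSIG1: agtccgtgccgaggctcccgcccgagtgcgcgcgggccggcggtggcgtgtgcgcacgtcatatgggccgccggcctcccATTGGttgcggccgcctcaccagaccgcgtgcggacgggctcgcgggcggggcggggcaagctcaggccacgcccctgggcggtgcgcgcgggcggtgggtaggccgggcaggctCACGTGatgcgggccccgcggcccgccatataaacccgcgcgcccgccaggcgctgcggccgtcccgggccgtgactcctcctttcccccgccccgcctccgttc
HMGCS1: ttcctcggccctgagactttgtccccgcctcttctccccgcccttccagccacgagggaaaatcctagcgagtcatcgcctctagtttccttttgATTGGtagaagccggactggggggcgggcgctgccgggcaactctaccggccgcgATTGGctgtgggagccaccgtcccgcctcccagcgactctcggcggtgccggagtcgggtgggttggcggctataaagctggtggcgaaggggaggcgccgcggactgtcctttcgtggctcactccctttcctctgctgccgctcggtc
All CCAAT boxes here lie on the opposite strand and so read ATTGG. In SREBF2 the sterol regulatory element letters begin 133 bases before the start, with a CCAAT box at 106. INSIG1 has a CCAAT box at 170 and an E-box at 55 bases before the start, and HMGCS1 has CCAAT boxes at 155 and 100. HMGCS1 has a second RefSeq window, at chr5:43313132-43313431, which holds 0 matches to the 3 motifs and is not printed.

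The 8 lipogenic enzymes split, with 1 called higher and 2 lower (37.5%, where 21.1% of all genes were called). ACACA, acetyl-CoA carboxylase, which commits carbon to fatty acids, measured 404.4, 355.9 and 412.1 CPM in the libraries labelled knockout, against 309.01, 294.4 and 327.4 CPM in the controls. The groups did not overlap. ACACA rose by a log2 fold change of 0.33 (SE 0.068; edgeR adjusted p = 0.00979), and this call was lost without replicate 1 labelled knockout (adjusted p = 0.0509). FASN, fatty acid synthase, measured 461.9, 427.0 and 516.1 CPM in the libraries labelled knockout, against 387.3, 367.8 and 431.2 CPM in the controls. Those groups overlapped by a little, between replicate 2 labelled knockout and control replicate 3 (log2 fold change 0.24, SE 0.082; adjusted p = 0.0658). FASN was called higher without control replicates 2 or 3 (adjusted p = 0.0374 and 0.0427) and without replicate 2 labelled knockout (adjusted p = 0.0476).

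ELOVL6, which elongates the palmitate made by FASN, had the smallest adjusted p of the set after SQLE. It measured 75.4, 69.2 and 72.7 CPM in the libraries labelled knockout, against 115.7, 108.4 and 111.0 CPM in the controls. The groups were tight and far apart, and ELOVL6 stood at 64.8% of the control mean. ELOVL6 fell by 0.62 on the log2 scale (SE 0.054; edgeR adjusted p = 0.000134). ACSS2, which makes acetyl-CoA from acetate, measured 73.0, 70.4 and 65.7 CPM in the libraries labelled knockout, against 85.9, 96.4 and 84.0 CPM in the controls. The groups did not overlap, and ACSS2 fell by 0.35 (SE 0.069; adjusted p = 0.00874). SCD, the stearoyl-CoA desaturase, had the highest level of the set per kilobase in both groups, 126.4 RPKM in the libraries labelled knockout and 126.8 RPKM in the controls. Its log2 fold change was -0.00 with a standard error of 0.085. ACLY, FADS1 and FADS2, which supply acetyl-CoA and desaturate long chains, had values of 0.06, 0.16 and 0.23, none of them called.

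**Figure D4:**
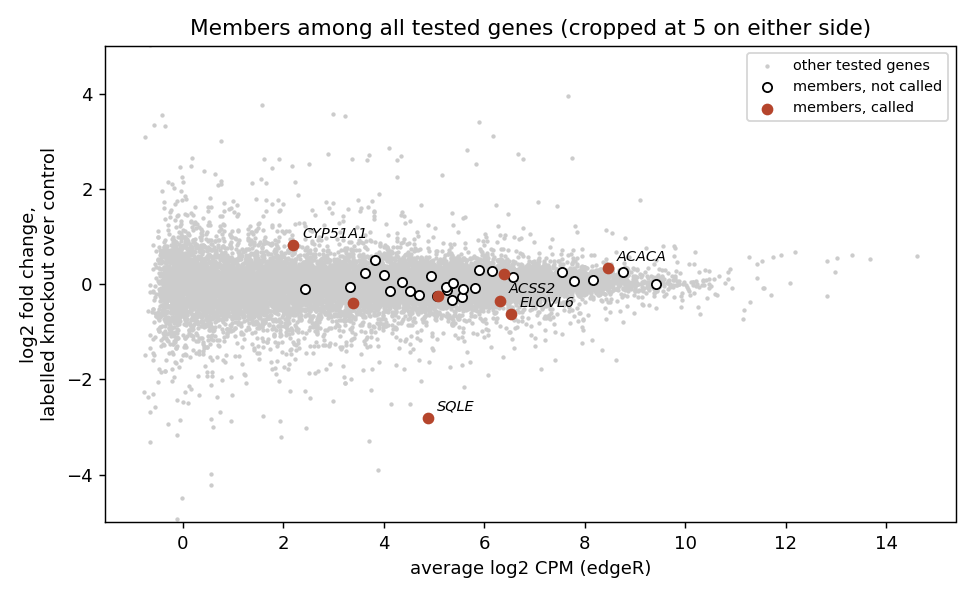
Log2 fold change (libraries labelled ZFP90 knockout over controls) against the average log2 CPM of each tested gene; grey points are genes outside the set, open circles members not called and filled circles members called at adjusted p under 0.05. SQLE at -2.81 lies apart from the other 33 members, which lie between -0.62 (ELOVL6) and 0.82 (CYP51A1). The vertical axis ends at 5 in either direction.

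SQLE occupies chr8:124998497-125022283, plus strand, in GENCODE release 29 on GRCh38, an annotation that serves only to place genes, as the reads were counted on hg19/GRCh37. There, 0% of its exonic bases overlap exons of another gene. Neighbours were taken from the 83.8% of tested genes that the annotation could place by symbol, so a nearer gene without a place can be missing. The placed genes around SQLE did not share its fall. Of the 10 such genes on each side, edgeR called 1 of 20 higher and 0 lower, where 21.1% of all genes were called. DESeq2 and limma-voom gave the same counts, and an unadjusted p was under 0.05 for 2 of the 20 in edgeR. Their median log2 fold change was 0.21, on a chromosome where control replicate 2 was low, and the lowest single value was -0.23. The 1 called was NDUFB9, a respiratory chain subunit, at 92.6, 93.8 and 97.5 CPM in the libraries labelled knockout, against 81.7, 63.7 and 81.0 CPM in the controls. NDUFB9 rose by 0.33 (edgeR adjusted p = 0.0351) and by 0.22 without control replicate 2, and it was not called without replicates 1, 2 or 3 labelled knockout (adjusted p = 0.0929, 0.0844 and 0.119). Without control replicate 2, the neighbours numbered 2 higher and 1 lower, where 27.7% of all genes were called. The lower one was FBXO32, a ubiquitin ligase subunit named after its values were seen, at -0.42 (adjusted p = 0.0162). With control replicate 2 corrected along the genome, the neighbours' median was 0.10. Then 4 were called higher and 2 lower, where 30.6% of all genes were called.

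**Figure D5:**
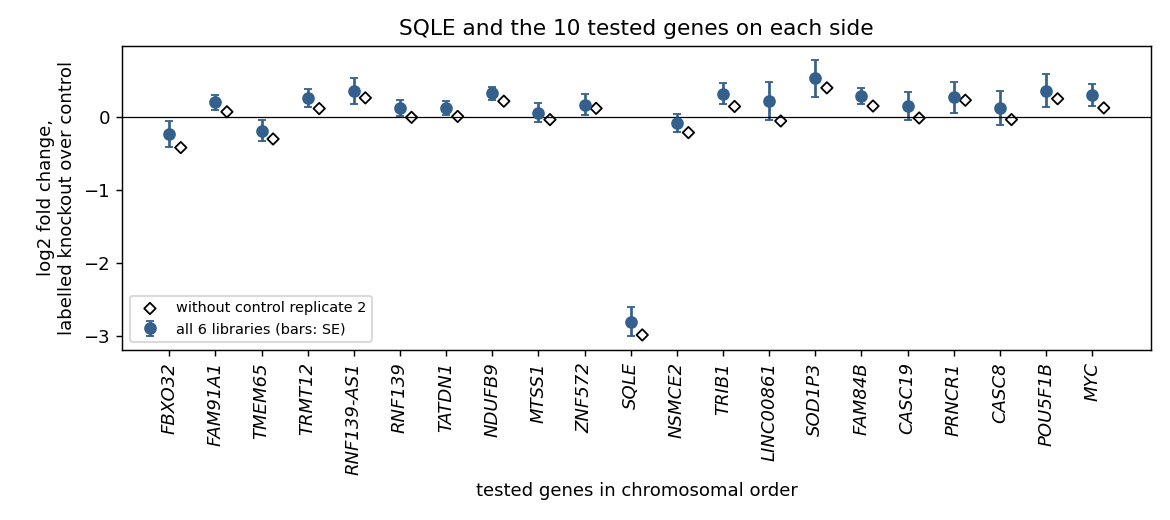
Log2 fold change (libraries labelled ZFP90 knockout over controls) of SQLE and of the 10 nearest placed, tested genes on each side, in chromosomal order. Bars are standard errors and diamonds are values without control replicate 2. SQLE stands at -2.81, while the 20 neighbours lie between -0.23 and 0.53.

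Other genes of sterol and lipid handling were taken from 4 further lists of 76 genes, of which 71 passed the count filter. Of these, 5 were called higher and 8 lower (18.3%, where 21.1% of all genes were called), with a median log2 fold change of 0.01. Of 19 genes for sterol sensing and trafficking, DESeq2 called 0 in either direction and limma-voom 0 higher and 1 lower. By edgeR 0 were higher and 1 lower (5.26%, where 21.1% of all genes were called), with an unadjusted p under 0.05 for 5. That 1 was STARD3, a cholesterol carrier of late endosomes, which fell by 0.22 (SE 0.055; adjusted p = 0.0236). Leaving out any 1 library other than control replicate 2 took its adjusted p to between 0.0647 and 0.0817, and DESeq2 gave 0.0645. Of 8 tested genes for oxysterols and the liver X receptors, which sense sterol excess, ABCG1 was lower and 0 were higher. That is 12.5%, where 21.1% of all genes were called, with an unadjusted p under 0.05 for 2 of the 8. DESeq2 and limma-voom gave the same counts. ABCG1, a cholesterol exporter, measured 4.10, 3.19 and 4.90 CPM in the libraries labelled knockout, against 8.13, 7.82 and 8.27 CPM in the controls. The groups did not overlap, and ABCG1 fell by 0.98 (SE 0.16; edgeR adjusted p = 0.00329), also with any 1 library left out (highest adjusted p = 0.0214). For 15 genes in the isoprenoid branches, edgeR, DESeq2 and limma-voom gave the same counts. By edgeR an unadjusted p was under 0.05 for 3, and 1 was higher and 0 lower (6.67%, where 21.1% of all genes were called). It was RABGGTB, a subunit of the enzyme that attaches geranylgeranyl groups to Rab proteins, at 0.28 (SE 0.053; adjusted p = 0.00727); with library sizes alone it was not called (0.21, adjusted p = 0.0641).

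Of 29 other lipogenic genes, 4 were higher and 6 lower (34.5%, where 21.1% of all genes were called). Leaving out replicate 1 or replicate 2 labelled knockout gave 2 higher and 3 lower, where 10.7% and 14.9% of all genes were called in turn. Leaving out replicate 3 labelled knockout gave 3 higher and 2 lower, where 11.6% of all genes were called. Leaving out control replicate 3 gave 3 of each, where 15.4% of all genes were called. ACSL5, which activates long-chain fatty acids, measured 585.9, 571.8 and 623.1 CPM in the libraries labelled knockout, against 299.9, 304.2 and 302.8 CPM in the controls. Every library labelled knockout lay far above every control. ACSL5 rose by a log2 fold change of 0.97 (SE 0.050; edgeR adjusted p = 8.5e-06). PPARG, a nuclear receptor that directs fat storage, measured 134.0, 117.3 and 133.1 CPM in the libraries labelled knockout, against 82.8, 76.8 and 84.5 CPM in the controls. PPARG rose by 0.66 (SE 0.067; adjusted p = 0.000327). SCD5, the second stearoyl-CoA desaturase, measured 14.1, 12.8 and 16.1 CPM in the libraries labelled knockout, against 23.2, 22.2 and 22.6 CPM in the controls. SCD5 fell by 0.66 (SE 0.096; adjusted p = 0.00204), and for these 3 genes the groups did not overlap and the calls held with any 1 library left out. DGAT1, a triglyceride synthesis enzyme on chromosome 8, rose by 0.45 (SE 0.14; adjusted p = 0.0491) and by 0.28 without control replicate 2 (adjusted p = 0.00492). Its call was lost without replicates 1, 2 or 3 labelled knockout (adjusted p = 0.116, 0.122 and 0.140) and without control replicate 3 (adjusted p = 0.0632).

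Libraries of 1 group also differed in where the set lay. Replicate 2 was the lowest of the libraries labelled knockout for 20 of the 34 genes (58.8%, against 36.6% of all genes tested), and replicate 3 the highest for 19 (55.9%, against 33.3%). Among the controls, replicate 2 was the lowest for 21 genes (61.8%, against 38.9% of all genes tested) and replicate 3 the highest for 24 (70.6%, against 33.4%). These shares are a description with no test. SQLE followed the same order in both groups, as did SREBF2, ACACA, FASN and SCD.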

How the data were processed

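Libraries of 6 HCT116 samples were prepared with an Illumina TruSeq kit, each starting with 1 µg of total RNA, per the labels' protocols. The deposited files hold whole-number counts of reads per gene for each library. The submitters' processing notes name TopHat2 2.0.11, HTSeq and hg19/GRCh37. Neither the version of HTSeq nor whether it used strand is given in the sources used here, so antisense and overlapping genes are uncertain. Each file lists 56638 gene symbols and 5 summary lines, which held 31.7% to 32.4% of its reads and were left out of library sizes and tests.

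Libraries were grouped by their labels. Counts were filtered with filterByExpr (minimum count 10, minimum total 15), scaled by TMM and tested with edgeR 4.0.16 (quasi-likelihood, 2 groups, no covariate) in R 4.3.3. P-values were adjusted by Benjamini-Hochberg over 16369 genes, with calls at 0.05; the standard error is the log2 fold change divided by the square root of F. CPM are TMM-scaled; RPKM divide them by the union of exons in GENCODE release 29 on GRCh38, which was also used to place genes. Simulated counts used the mean levels and library sizes of these data and the same fixed dispersion for every gene. A small share of genes was changed, and the shift of control replicate 2 was left out. On 16377 genes, 61.1% of those changed 1.5-fold, 89.3% of those changed 2-fold and 100% of those changed 4-fold were recovered. There, 6.98% of calls were false, and these rates need not hold for the libraries themselves. SQLE was set against FDFT1 and LSS in log2(CPM + 1) with an exact permutation test over libraries. DESeq2 1.42.0, limma-voom (limma 3.58.1), other scalings, other filters, a replicate block, each library left out and control replicate 2 corrected were the alternatives. The correction subtracts a running median over 51 genes along each chromosome, and it left genes without a known place as they were.

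The 34 genes and the other lists were chosen with earlier results of these data known. Per-library values are given for SQLE, FDFT1, LSS, each called gene of the set and the uncalled gene with the largest change in each class; from the other lists at most 4 called genes are named. Values of other members of the set (FDPS, DHCR7, SREBF1, SREBF2, INSIG1) were added after they were seen. Promoter windows are from RefSeq. Libraries of a group differed by more than sampling noise (chi-square per degree of freedom 2.08 to 17.8), so none was counted as a repeat deposit.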

Additional observations from a re-analysis of the deposited data

How the results depend on the processing

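SQLE, ELOVL6 and ACSS2 were called lower in all 15 alternatives fitted over all genes; the log2 fold change of SQLE ran from -2.99 to -2.68 with 1 library left out. The count of the 34 genes called higher, 3, became 8 with no filter on low counts, 6 with the replicate block, 8 with control replicate 2 corrected and 1 at an adjusted p under 0.01, and it ran from 0 to 5 with 1 library left out. The count called lower, 5, became 9 with library sizes alone, 3 with DESeq2, 8 with the correction and 3 at 0.01, and it ran from 3 to 8. Over all genes, 1593 higher became 989, 2492 and 618 with library sizes alone, the correction and 0.01, and 1861 lower became 869 at 0.01; the ranges were 756 to 2261 and 1025 to 2361. Calls higher were 46.1% of all calls, and 29.7% with library sizes alone. The other lists gave 8 higher with the correction and 3 at 0.01, and 5 lower with DESeq2 and 3 at 0.01, with ranges of 3 to 8 and 4 to 12. The SQLE neighbours gave 6 higher with no filter, 3 with the block, 4 with the correction and 0 at 0.01, and 2 lower with the correction, with ranges of 0 to 2 and 0 to 1.

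Direction turned for genes that were never called. With 1 library left out, ACAT2 ran from -0.25 to 0.070 (above 0 without control replicate 3), EBP from -0.075 to 0.37 and SC5D from -0.012 to 0.043 (below 0 without control replicate 2). INSIG1 ran from -0.19 to 0.21 (below 0 without control replicate 2 and, at -0.05, without replicate 3 labelled knockout). SCD ran from -0.065 to 0.083 (above 0 without replicate 2 labelled knockout and without control replicate 3). With the correction, EBP was -0.039, INSIG1 -0.058 and SCD 0.0096. With library sizes alone, SC5D was -0.050, INSIG1 -0.0054 and ACLY -0.0017. SC5D was -0.0059 with upper-quartile scaling, and SCD 0.0011 with no filter. The difference SQLE minus FDFT1 was -3.06 and -2.44 with pseudocounts of 0.1 and 5, and SQLE minus LSS was -2.52 and -1.95; with 1 library left out they ran from -2.94 to -2.87 and from -2.58 to -2.28. The cause of these changes was not tested.

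Whether equal replicate numbers stand for paired libraries was not settled, and the first fit used no pairing. Libraries of equal number had deviation correlations of 0.0779, 0.206 and 0.158. Replicate 1 labelled knockout correlated slightly better with control replicate 3 (0.0862), and the remaining unequal pairs ran from -0.213 to 0.0509. With the replicate block, 6 of the 34 genes were called higher and 7 lower (38.2%, where 21.2% of all genes were called), and DGAT1 was not called (adjusted p = 0.0516). For CYP51A1, with 34 reads in its lowest library, and ACAT2, depth limits the precision.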

Other observations

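Near-identical copies of 3 members were also counted. By edgeR 0 of the 4 copies passed the test, where 21.1% of all genes were called, with an unadjusted p under 0.05 for 1. CYP51A1P1 had 5.61, 5.88 and 6.92 CPM in the libraries labelled knockout, against 4.25, 4.34 and 5.37 CPM in the controls, without overlap (log2 fold change 0.41, adjusted p = 0.092), where CYP51A1 itself was at 0.82. CYP51A1P2 was at 0.18, HSD17B7P2 at -0.01 and SCDP1 at -0.18, and their groups overlapped.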
